A study of Homo sapiens and Mus musculus with 66 samples.

Results

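Type II cadherins are calcium-dependent adhesion proteins of the cell surface, and 10 of their genes were followed through the lamina regions of this series: CDH6, CDH7, CDH8, CDH9, CDH10, CDH11, CDH12, CDH18, CDH19 and CDH20. They were chosen by name and are 10 of the 20162 protein-coding genes that GENCODE release 44 places on chromosomes 1 to 22, X and Y of hg19. The choice leaves out 3 further type II genes, CDH5, CDH22 and CDH24, and was made with earlier results of these data known, so that a count over the 10 is no count over the family. All 13 genes are therefore also counted together below.

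In cTSA-seq, an antibody against lamin-B1 directs peroxidase to the nuclear lamina (NL), tyramide biotin is deposited nearby, and biotinylated chromatin is pulled down with streptavidin (StrePD) and sequenced beside its input. Lists of called regions were read for K562 cells, a human leukemia line, and for HCT116 cells, a human colorectal cancer line, as bulk cultures, as 50000, 200000 or 1000000 cells, as 90m G1 and 180m G1 cells, and as G1, S and G2 cells. The 90m G1 and 180m G1 cells came from cultures treated with nocodazole for 16 h per the labels. The paper's methods give a longer time. Mitotic cells were shaken off, released for 90 or 180 min, fixed and sorted for G1 DNA content. The G1, S and G2 cells were instead sorted from cultures that were not synchronized. An eleventh list holds published K562 TSA-seq data, from another study, called with the same model. That study used another antibody, against lamin-B, and TSA-seq pulls down purified DNA rather than chromatin. The labels give 2 StrePD libraries for each condition except 1000000 cells, which has 1. Each condition has 1 merged list of regions in 100 kb windows with neither signal nor read count, so depth is unknown, no spread between replicates can be given, and nothing below was tested.

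The nuclear lamina is a meshwork of lamin proteins under the inner nuclear membrane, and the chromatin that lies against it is mostly poor in genes, late replicating and little transcribed. It is taken apart in mitosis and rebuilt as cells enter G1. Cadherins bind the same or a related cadherin on the neighbouring cell and are tied to actin through catenins inside the cell. Type II members are best known from neurons, mesenchyme and neural crest, where different combinations of them sort cells and pair synaptic partners, while epithelial cells rely on the type I member E-cadherin.

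A gene was counted as inside a list when at least 80% of its body, from the first to the last annotated base, lay in called regions. With the exception of 90m G1, every list held between 8 and 10 of the 10 members, and the median member was 100% inside. The K562 cTSA-seq list held 10 members, against 11% of all protein-coding genes and 23.9% of those of at least 100 kb. K562 TSA-seq held 9, against 9.21% and 19.2%. In HCT116 cells the bulk list held 9, against 11.1% of all genes and 16.2% of long ones. Longer genes were inside more often than genes at large in these lists, and the members are long, so both backgrounds are given.

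The lists from small cell numbers held 9 members with 50000 cells (background 5.98% of all genes and 9.85% of long genes), 10 with 200000 cells (5.08% and 9.08%) and 9 with 1000000 cells (4.89% and 8.35%). Among the sorted cells, 180m G1 held 8 (5.3% and 10.7%), G1 held 8 (4.81% and 8.43%), S held 9 (5.38% and 10.2%) and G2 held 9 (4.55% and 8.97%). The 90m G1 list held 1 member, CDH11, against 17.2% of all genes and 16.8% of long genes. The other 9 members were all at 0%, as were 82.3% of all protein-coding genes. The authors' model sorts windows into enriched, intermediate or noisy, and depleted states, and these lists hold the enriched one. A value of 0% therefore does not tell intermediate from depleted windows. So the share of members was above the background in 10 lists, while in 90m G1 a count of 1 of 10 is close to the background.

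**Figure D1:**
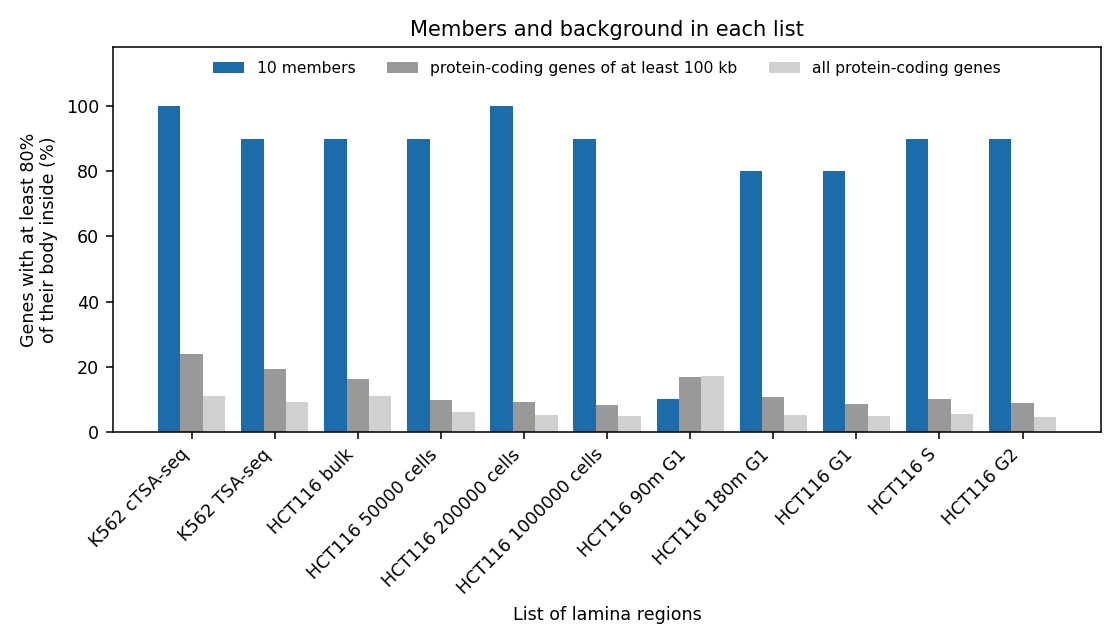
Percent of genes counted as inside each of the 11 lists (x axis), for the 10 members, for protein-coding genes of at least 100 kb and for all protein-coding genes. The members stand at 80% to 100% in every list but 90m G1, where they stand at 10%, and the background stands between 4.55% and 23.9%.

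With CDH5, CDH22 and CDH24 added, the counts were 8 to 10 of 13 genes in the 10 lists and 2 of 13 in 90m G1. CDH5, the VE-cadherin of endothelial cells, was 100% inside the 90m G1 list and 0% inside the other 10. CDH22 and CDH24 were at 0% in all 11 lists, and both were 100% inside the K562 regions that the authors list as depleted by both methods. None of the 10 members had any base in those depleted regions, which held 54.6% of all protein-coding genes, while 43.8% had no base there. Nor did any member lie in the regions called by cTSA-seq only in K562 cells. Those regions held 2.25% of genes, and 97.2% had no base in them. The K562 regions shared by both methods held 9 members, against 6.78% of genes. The authors drew these 3 lists from the K562 cTSA-seq and TSA-seq calls counted above. The members' places in them therefore largely follow from those counts and are no separate result.

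**Figure D2:**
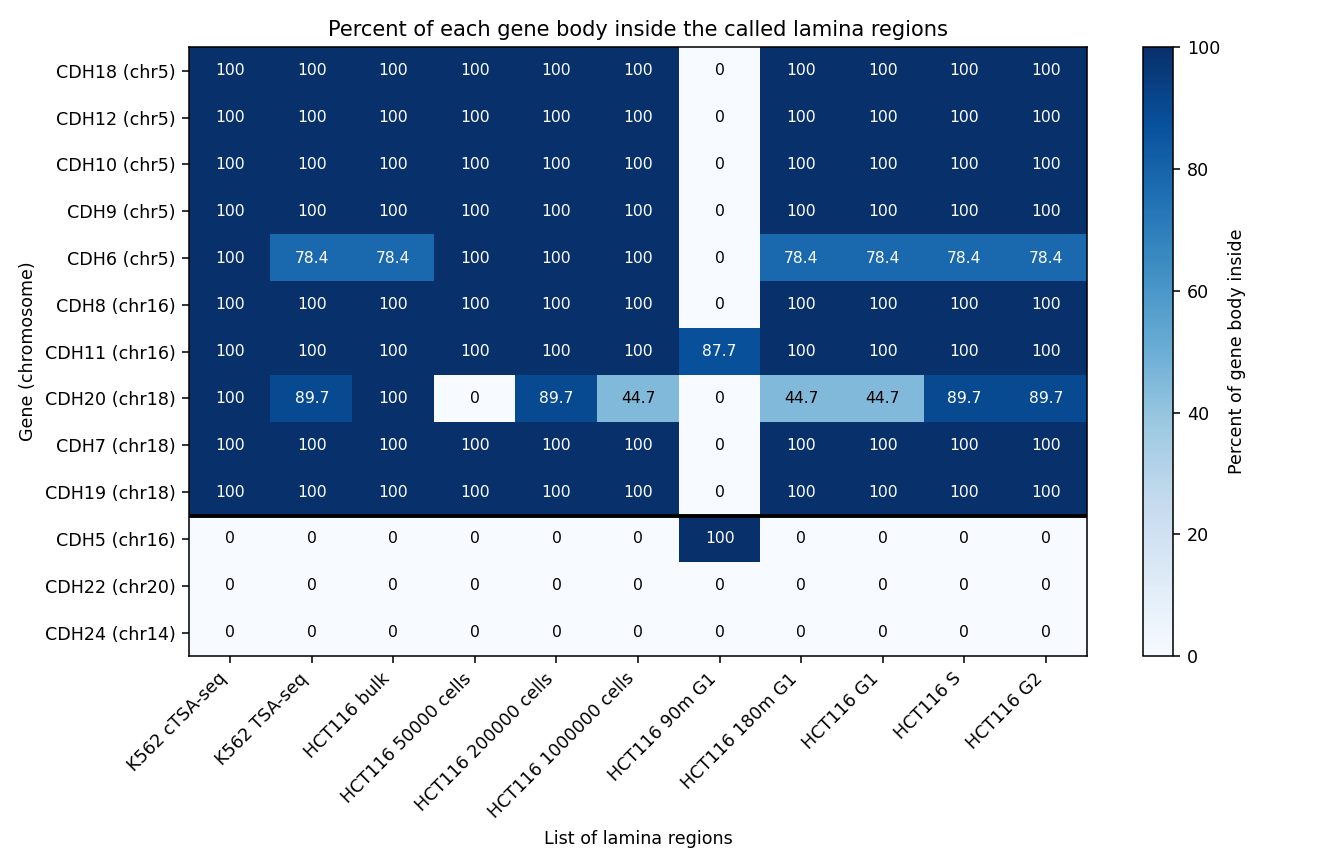
Percent of the gene body inside each list (columns) for the 10 members in chromosome order and, under the line, for CDH5, CDH22 and CDH24. Partial values occur only for CDH6 (78.4%), CDH11 (87.7% in 90m G1) and CDH20 (44.7% or 89.7%).

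The members form 3 groups. CDH18, CDH12, CDH10, CDH9 and CDH6 follow each other over 11.9 Mb of the short arm of chromosome 5, CDH8 and CDH11 over 3.5 Mb of the long arm of chromosome 16, and CDH20, CDH7 and CDH19 over 5.3 Mb of the long arm of chromosome 18. Genes of a group often share a called region, so they are not independent of each other. Over all 10 members the body was 103 to 1105 kb long with a median of 202 kb, against a median of 27.2 kb for all protein-coding genes. GC content of the body ran from 32.3% to 40.4% with a median of 35.3%, against 45.3%. Within 1 Mb of a member lay 0 to 6 other protein-coding genes with a median of 1, against a median of 23 for all genes. Introns made up between 89.6% of CDH7 and 99.5% of CDH12.

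On chromosome 5, CDH18 (chr5:19471405-20575982, minus strand, 1105 kb) and CDH12 (chr5:21750782-22853453, minus strand, 1103 kb) are the longest members, and both are expressed mainly in brain. CDH10 (chr5:24487209-24645087) and CDH9 (chr5:26880706-27121257), on the same strand, are neuronal cadherins, and CDH9 is known from synapses of the hippocampus. These 4 genes were 100% inside all 10 lists other than 90m G1 and 0% inside 90m G1. No border of any list crossed their bodies.

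In 5 lists these 4 genes shared a called region that was the longest of its list. In HCT116 bulk cells it was chr5:17200001-31300000, 14.1 Mb, the longest of 443 regions, and it held all 5 members of the group, CDH6 in part. With 50000, 200000 and 1000000 cells the same start was called and the end lay 1 window further, giving 14.2 Mb, again the longest region of each list (432, 435 and 427 regions). In K562 cTSA-seq the region reached from 12800001 to 28600000, 15.8 Mb, the longest of 664, and held CDH18, CDH12, CDH10 and CDH9. A gap of 7 windows then separated it from the 2.1 Mb region that held CDH6.

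In the other 5 lists the 4 genes were split over 2 regions. K562 TSA-seq, 180m G1, G1, S and G2 each had chr5:17700001-21400000, 3.7 Mb, with CDH18, and chr5:21500001-31300000, 9.8 Mb, with CDH12, CDH10, CDH9 and most of CDH6. The borders were the same to the window in these 5 lists. The 9.8 Mb region was the longest of the G2 list and ranked 2 by size in G1 and S, 3 in 180m G1 and 13 in K562 TSA-seq. The 3.7 Mb region of CDH18 ranked 92 of 382 in K562 TSA-seq, 38 of 377 in 180m G1, 31 of 443 in G1, 36 of 471 in S and 33 of 430 in G2. Between these regions lay the single window chr5:21400001-21500000, which was called in the other 5 lists. In it, 43.2% of the sequence words of 31 bases occur more than once in hg19, against a median of 9.92% over the 141 windows of the bulk region, where 5 windows had a higher share. In 180m G1, G1, S and G2 a second gap of 2 windows, chr5:17500001-17700000, preceded the 3.7 Mb region and cut off a short stretch before it that holds no member. Of its windows the first had 74.8% repeated words and the next 21%. The other windows of the bulk region with a share above 43.2% were no gaps, since each was called in 10 lists. They start at 20700001 (72%), 20800001 (62.9%), 21300001 (67.5%) and 22100001 (48.7%). The part of repeated sequence in these gaps was not tested.

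**Figure D3:**
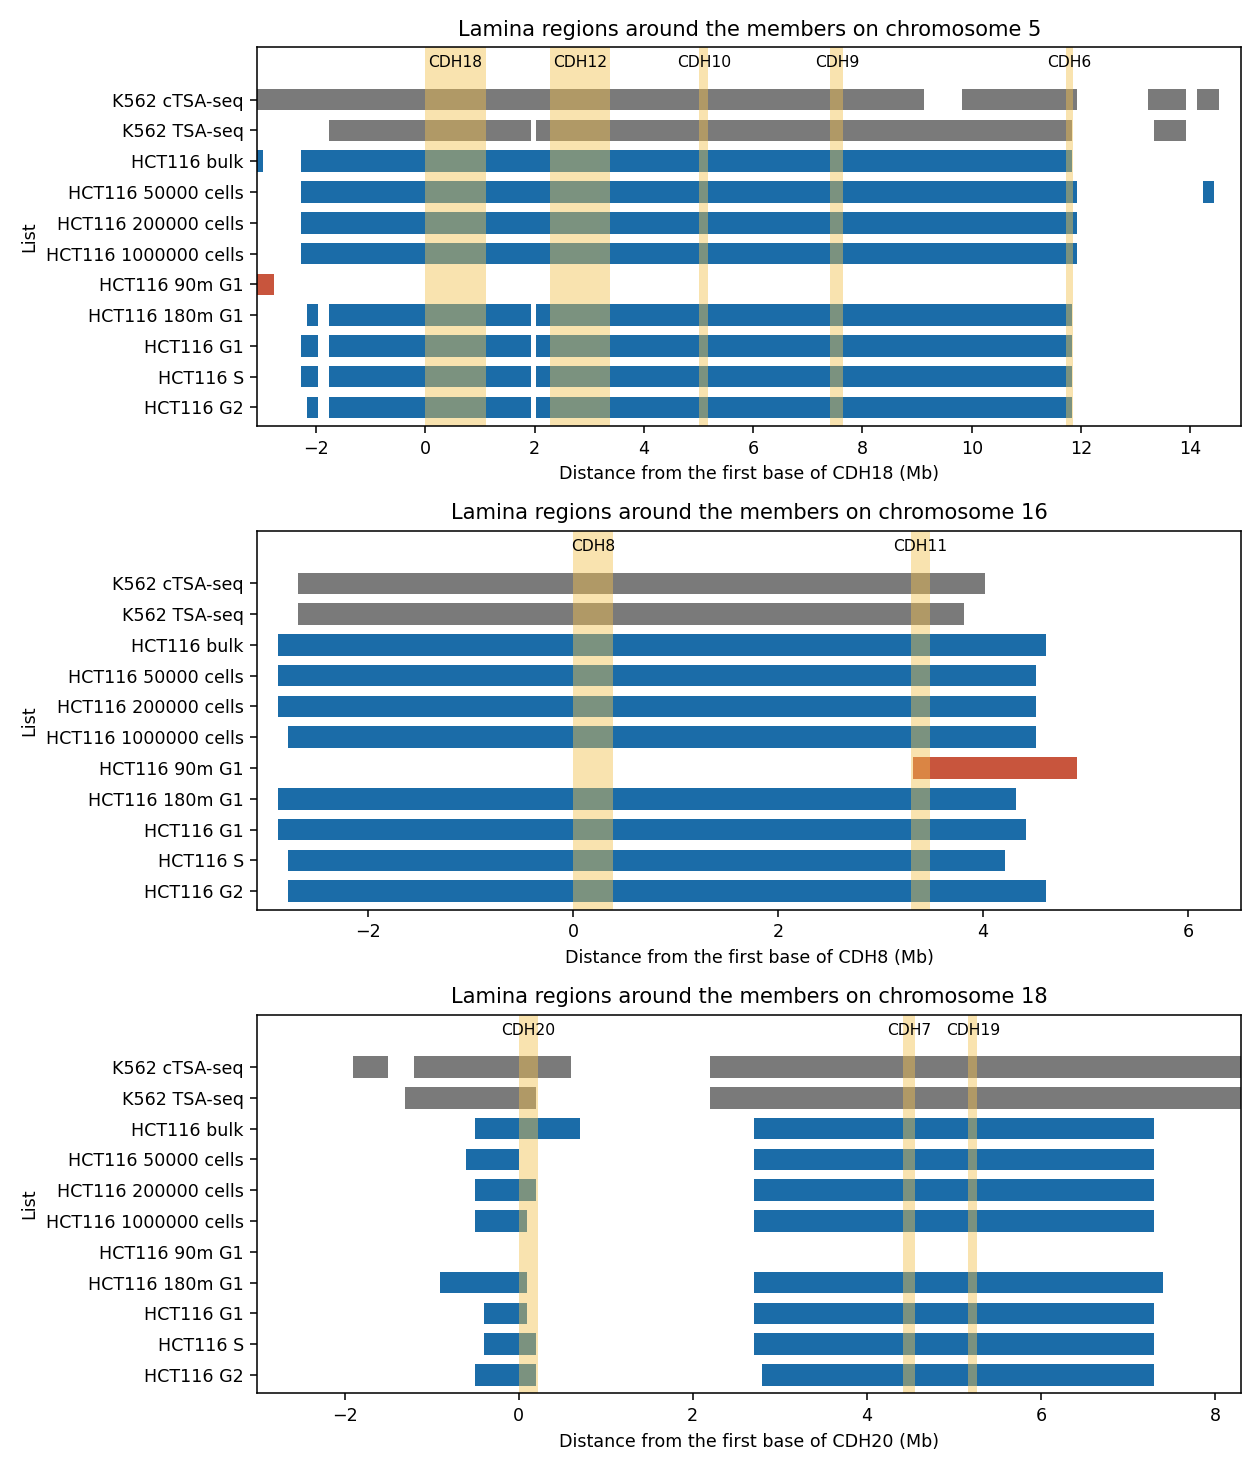
Called regions (bars) of the 11 lists around the members (yellow bands) on chromosomes 5, 16 and 18, in Mb from the first base of the leftmost member. Grey is K562, blue HCT116 and red the 90m G1 list, which reaches a member only at CDH11.

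In the lists with the split, few genes shared these regions with the cadherins. The 9.8 Mb region held 4 protein-coding genes, CDH12, CDH10, CDH9 and PRDM9, the histone methyltransferase of meiotic recombination hotspots, and the 3.7 Mb region held CDH18 alone. PRDM9 lies 590 kb beyond CDH12 and 959 kb before CDH10, and it was 100% inside the same 10 lists. The 14.1 Mb bulk region held 20 protein-coding genes, since it takes in the TAF11L family and H3Y1 at its start. H3Y1, a histone H3 variant gene 1815 kb before CDH18, was inside 5 lists. The 15.8 Mb K562 cTSA-seq region, which starts further out, held 31, or 1.96 per Mb. Over all holding regions, protein-coding genes numbered 0.386 to 0.428 per Mb in 180m G1, G1, S and G2 (whole lists 1.49 to 1.69), 0.932 in K562 TSA-seq (1.77) and 0.974 to 1 in the HCT116 bulk and cell-number lists (1.5 to 2.68). In K562 cTSA-seq they numbered 1.65 per Mb, close to the 1.81 of the whole list, and in 90m G1 the region of CDH11 had 3.75, against 6.57. The genome has 6.51 per Mb.

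The lists cannot place a promoter more finely than a window, so promoter sequences are only described beside the calls. RefSeq promoters (GRCh38.p14) were given for 8 of the 10 members, not for CDH6 and CDH11. The 250 bases before the start are shown for CDH10 (chr5:24644979-24645228, minus strand) and CDH12 (chr5:22853345-22853594, minus strand), whose starts lay in a called window in 10 lists, with each CG dinucleotide in capitals.
CDH10: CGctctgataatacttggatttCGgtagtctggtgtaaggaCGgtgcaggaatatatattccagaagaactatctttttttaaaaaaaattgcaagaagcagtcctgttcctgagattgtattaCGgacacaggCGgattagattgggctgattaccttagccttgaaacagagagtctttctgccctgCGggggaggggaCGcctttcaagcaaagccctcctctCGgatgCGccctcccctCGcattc
CDH12: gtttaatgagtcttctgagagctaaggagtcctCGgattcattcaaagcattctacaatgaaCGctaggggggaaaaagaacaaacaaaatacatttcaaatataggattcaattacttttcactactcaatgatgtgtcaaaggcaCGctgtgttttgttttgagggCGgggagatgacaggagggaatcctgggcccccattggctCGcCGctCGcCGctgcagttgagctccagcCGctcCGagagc
Each holds 10 CG, and 68.6% of 15843 protein-coding promoters hold as many or more. The observed over expected ratio of CG was 0.707 for CDH10 and 0.699 for CDH12, against a median of 0.737. It was lower for CDH9 (0.503) and CDH18 (0.317), which lie in the same part of chromosome 5. For CDH20, CDH7 and CDH19 it was 0.486, 0.467 and 0.446, and for CDH8 0.782. The lowest counts among the members were 4 CG, in CDH18 and CDH19. Only CDH8, with 19 CG and 64% GC, lay above the median promoter, which holds 17 CG and 62.4% GC. CDH8 was inside the same 10 lists as CDH7, CDH9, CDH10, CDH12, CDH18 and CDH19. CDH9 and CDH20 each hold 7 CG, and CDH9 was inside 10 lists while CDH20 was inside 6. A relation between CG content and the calls was not tested.

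CDH6 (chr5:31193793-31329253, plus strand, 135 kb), known from kidney development, ended the group, and a border of the lists cut it. It was 100% inside in 4 lists, K562 cTSA-seq and the lists of 50000, 200000 and 1000000 HCT116 cells. In 6 lists it was 78.4% inside, which is just under the 80% asked for, and in 90m G1 it was at 0%. The 78.4% arose because the region ended at 31300000, so that the last 29.3 kb of the gene lay outside. Its start, 0.11 Mb before that border in the G1 list, lay in a called window in 10 lists. The next gene, DROSHA, which encodes the nuclease of microRNA processing, begins 71.3 kb after CDH6 and was at 0% in all 11 lists. So the border fell within or just behind CDH6 in the 10 lists other than 90m G1.

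On chromosome 16, CDH8 (chr16:61681146-62070939, minus strand, 390 kb), a cadherin of neurons and synapses, was 100% inside the 10 lists and 0% inside 90m G1. CDH11 (chr16:64977656-65160015, minus strand, 182 kb), the OB-cadherin of osteoblasts and mesenchyme, was 100% inside the same 10 lists and 87.7% inside 90m G1. The region that held both genes was 6.5 Mb in K562 TSA-seq, 6.7 Mb in K562 cTSA-seq and 7.0 to 7.5 Mb in the HCT116 lists. In all of these 10 lists CDH8 and CDH11 were the only protein-coding genes it held. GOT2, the nearest gene before CDH8 at 2913 kb, was at 0% in all 11 lists.

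CDH11 lay near the distal border of that region, which ran from 65500000 in K562 TSA-seq to 66300000 in HCT116 bulk and G2 cells. Thus 340 to 1140 kb of called sequence followed the gene, compared with 3.43 to 4.23 Mb after CDH8. In 90m G1 a different region was called here, chr16:65000001-66600000, of 1.6 Mb. It began 22.3 kb inside CDH11, at the end of the gene away from its start, and reached further out than the region of any other list. It held 6 protein-coding genes, among them CDH11 and CDH5, which begins 1241 kb after CDH11. Of its 16 windows, 10 were also called in 180m G1 cells, and 11, 9 and 13 were called in sorted G1, S and G2 cells. In K562 cells 7 were called by cTSA-seq and 5 by TSA-seq. The overlap with the later lists was thus the part nearest CDH11, and CDH5 was outside all of them.

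On chromosome 18, CDH7 (chr18:63417488-63557573, plus strand, 140 kb), a cadherin of the nervous system and neural crest, and CDH19 (chr18:64168320-64271375, minus strand, 103 kb), found in the Schwann cell lineage, lie 611 kb apart. Both were 100% inside the 10 lists and 0% inside 90m G1. They shared a region of 4.5 to 4.7 Mb in HCT116 cells and of 6.3 or 6.4 Mb in K562 cells. The K562 region began at 61200001 and held 17 protein-coding genes, many of them from the SERPINB cluster of protease inhibitors. The HCT116 region began at 61700001, or at 61800001 in G2, and held CDH7, CDH19 and DSEL, with TMX3 added in 180m G1. SERPINB8, the nearest gene before CDH7 at 1730 kb, was inside the K562 lists and at 0% in the 9 HCT116 lists.

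CDH20 (chr18:59000663-59223012, plus strand, 222 kb), a neural cadherin, varied most between lists. It was 100% inside K562 cTSA-seq and HCT116 bulk and 89.7% inside K562 TSA-seq, 200000 cells, S and G2. It was 44.7% inside 1000000 cells, 180m G1 and G1, and 0% inside 50000 cells and 90m G1. Its region was 0.5 to 1.2 Mb in HCT116 cells and 1.5 or 1.8 Mb in K562 cells, the smallest region of any member in each of the lists that held it. The distal border set these values. The region ended at 59000000 with 50000 cells, which is 662 bp before the first base of CDH20, at 59100000 in 1000000 cells, 180m G1 and G1, at 59200000 in K562 TSA-seq, 200000 cells, S and G2, and beyond the gene in K562 cTSA-seq and HCT116 bulk. The values did not follow cell number, since the 50000-cell and 1000000-cell lists gave 0% and 44.7% and the 200000-cell list 89.7%. These lists also differ in libraries, since the labels give 1 StrePD library for 1000000 cells and 2 each for 50000 and 200000. Its start lay in a called window in 9 lists. RNF152, 252 kb after CDH20, was inside K562 cTSA-seq and HCT116 bulk and outside the other 9.

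**Figure D4:**
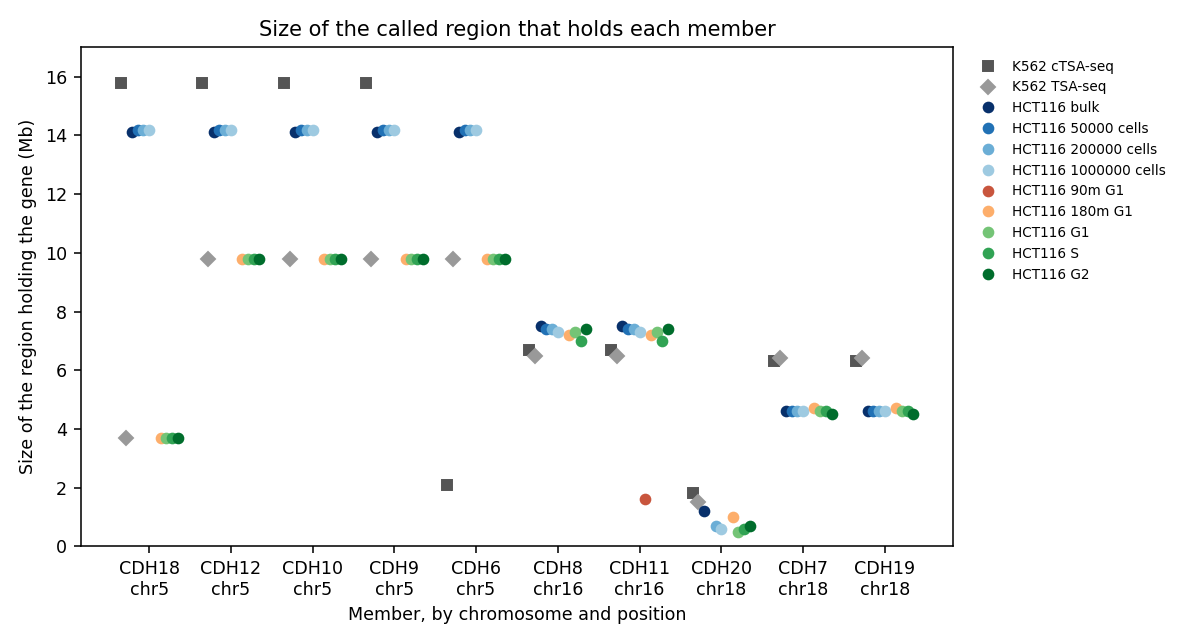
Size in Mb of the called region with the largest overlap with each member (x axis, in chromosome order), with 1 point for each list that has such a region. Regions on chromosome 5 reach 15.8 Mb, those of CDH20 stay at or under 1.8 Mb, and CDH11 has a 1.6 Mb region in 90m G1.

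Between stages, the windows from 1 Mb before the first to 1 Mb after the last member of a group were compared with the sorted G1 list. On chromosome 5, 128 of 140 windows were called in each of 180m G1, G1, S and G2, and they were the same windows. In 90m G1 it was 0 of 140. On chromosome 16, 54 of 56 windows were called in 180m G1, and 55, 53 and 56 in sorted G1, S and G2 cells. The 90m G1 list had 12 of them, of which 11 were also called in G1. On chromosome 18, 46 of 73 windows were called in 180m G1, 41 in sorted G1 cells and 42 in both S and G2 cells, against 0 in 90m G1. Within these spans, all differences between 180m G1 and G1 lay at region borders, 5 windows called in 180m G1 only on chromosome 18 and 1 called in G1 only on chromosome 16. Thus 8 members were inside at 180 min at the same level as in sorted G1 cells, and no member changed sides between these lists.

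The 90m G1 list is not empty on these chromosomes. It covered 26.5% of chromosome 5, 20.1% of chromosome 16 and 12.2% of chromosome 18. The nearest 90m G1 region lay 2.8 Mb from CDH18, 5.1 Mb from CDH12, 7.8 Mb from CDH10, 10.2 Mb from CDH9 and 14.5 Mb from CDH6, in that order along the chromosome. It lay 2.9 Mb from CDH8, 3.9 Mb from CDH20, 6.6 Mb from CDH7 and 5.9 Mb from CDH19.

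The 90m G1 regions lie toward chromosome ends. Protein-coding genes inside that list were a median of 8.7 Mb from the nearest end and those outside it 34.3 Mb. Of genes under 10 Mb from an end 45% were inside, of those at 10 to 20 Mb 26.1%, at 20 to 40 Mb 10.3%, and over 40 Mb 1.75%. No member lies within 10 Mb of an end. CDH19 (13.8 Mb), CDH7 (14.5 Mb), CDH20 (18.9 Mb) and CDH18 (19.5 Mb) are the nearest, followed by CDH12 (21.8 Mb), CDH10 (24.5 Mb), CDH11 (25.2 Mb), CDH9 (26.9 Mb), CDH8 (28.3 Mb) and CDH6 (31.2 Mb). The 1 member inside 90m G1, CDH11, was not among the nearest. Over all 5154 protein-coding genes from 13.8 to 31.2 Mb from an end, 17.4% were inside 90m G1, beside 1 of the 10 members.

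**Figure D5:**
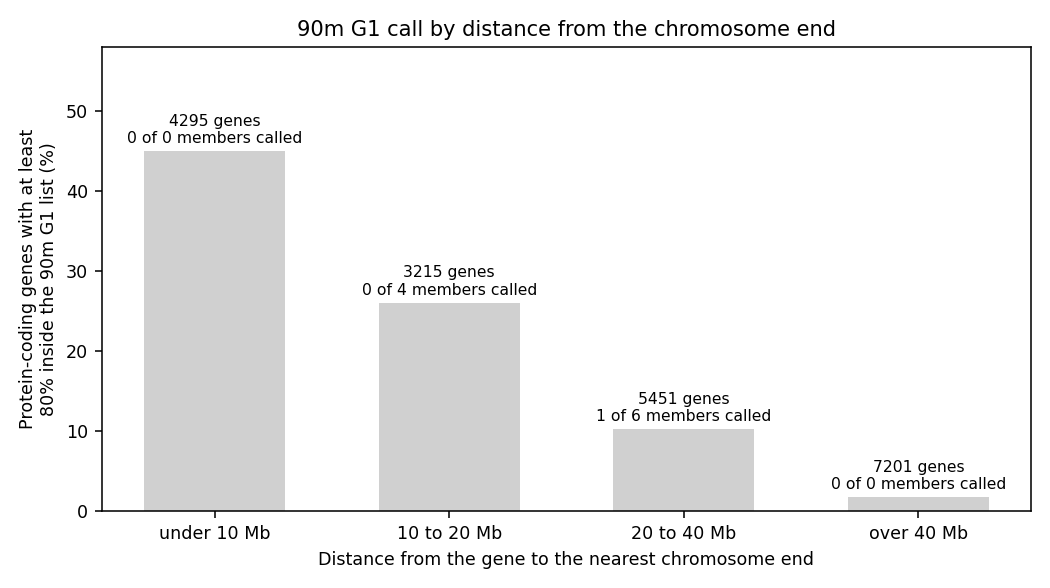
Percent of protein-coding genes counted as inside the 90m G1 list (bars) by distance from the nearest chromosome end (x axis), with the number of genes and members in each class. The share drops from 45% under 10 Mb to 1.75% over 40 Mb, and 1 of the 6 members at 20 to 40 Mb was called.

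Read as yes or no over the 11 lists, 7 members (CDH7, CDH8, CDH9, CDH10, CDH12, CDH18 and CDH19) had the same pattern, inside all but 90m G1. Apart from them 203 protein-coding genes had it, and the 3 longest are PTPRD (2299 kb), EYS (1987 kb) and ROBO2 (1743 kb), of which PTPRD and ROBO2 encode neuronal receptors. CDH11 was inside all 11 lists with 79 other genes, of which CNTNAP2 (2305 kb), CSMD1 (2060 kb) and OPCML (1118 kb) are the longest. Of the 290 genes inside the 10 other lists, 27.6% were also inside 90m G1. No other protein-coding gene had the pattern of CDH6 or that of CDH20. Both patterns depend on where a border fell within or beside the gene. With 50% of the body asked for, CDH6 was inside 10 lists. By comparison, 67.7% of protein-coding genes were inside none of the 11 lists.

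The coding sequences of the members were 57.9% to 72.5% identical over 45 pairs. The 14 pairs on the same chromosome had a median of 64.4% and the 31 pairs on different chromosomes 62.2%. This did not hold for each group, since the pairs on chromosome 18 were at 57.9%, 61.9% and 63%. CDH19 with CDH20, at 57.9%, was the least alike of all pairs. For 7 members the most similar member lay on the same chromosome. CDH6 and CDH10 were the most alike at 72.5%. Their counts differed in 6 lists, where CDH6 was 78.4% inside, just under the 80% asked for. With 50% of the body asked for, each was inside 10 lists. CDH8 and CDH11 were each other's nearest member at 66.4%.

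Other cadherin genes were counted the same way, from lists that were also chosen with earlier results known. Of the type I classical cadherins, CDH1 (E-cadherin) and CDH3 (P-cadherin), which lie on the same arm as CDH8 and CDH11, were at 0% in all 11 lists and 100% inside the K562 regions depleted by both methods. CDH2 (N-cadherin) was 100% inside 4 lists, both K562 lists, 180m G1 and S, and at 0% in the other 7. CDH4 (R-cadherin, 688 kb), 2.5 Mb from its chromosome end, was 100% inside HCT116 bulk and 90m G1 and 83.2% inside G2. It was at 0% in K562 TSA-seq and 180m G1, and at 10.6% to 68.7% in the rest. CDH15, the M-cadherin of muscle, was inside 90m G1 only. Thus 3 of these 5 genes were inside at least 1 list, whereas 67.7% of all protein-coding genes were inside none. In 90m G1 there were 2 of 5, against 17.2% of all genes. Both, CDH4 and CDH15, lie under 10 Mb from an end, where 45% of genes were inside 90m G1.

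CDH13 (T-cadherin, 1174 kb), which lacks a transmembrane segment, was inside 10 lists, among them 90m G1 at 100%, and at 0% in K562 TSA-seq. Of the further cadherins CDH16, CDH17 and CDH23 were at 0% throughout and CDH26 reached no more than 12%. The 7 desmosomal cadherins lie together on chromosome 18 and were outside nearly everywhere. DSC1, DSC2 and DSC3 were 100% inside K562 TSA-seq and at 0% in the other 10 lists, and no desmoglein passed 4.57%.

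Among the catenins, the intracellular partners, CTNNA2 (neuronal alpha-catenin, 1464 kb) and CTNND2 (delta-catenin, 933 kb) were inside 9 lists each. CTNND2 lies nearer the end of chromosome 5 than the cadherins, and 67.3% of it was inside 90m G1. CTNNA3 was inside the K562 lists only. CTNNB1 (beta-catenin, 65.4 kb) was 100% inside K562 cTSA-seq, HCT116 bulk and 180m G1 and at 0% in the other 8. CTNNA1, CTNND1 and JUP were at 0% in all 11 lists.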

How the data were processed

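The members and the other gene lists were chosen with earlier results of these data known. The values deposited by the authors are starts and ends of called regions in bp on hg19, and they carry no signal or read count. Per the paper's methods and the submitters' processing notes, the authors mapped reads with Bowtie2 2.3.2, dropped duplicates (samtools), made window counts (bedtools 2.26.0) at equal library totals, formed log2 ratios of StrePD over input as z-scores, and assigned windows by a Hidden Markov Model with 3 states. Per the methods, replicates were combined by intersecting their calls, so a region missed in a replicate is absent from such a list. The 90m G1 and 180m G1 lists lack the consensus name that the other HCT116 lists carry. The 1000000-cell list carries it, although the labels give 1 StrePD library for that condition. Borders move in steps of 100 kb.

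From these lists the percent of each GENCODE gene body inside was computed, and a gene was counted from 80% on. The background is the share of protein-coding genes counted the same way. Repeated words of 31 bases were counted over both strands of hg19, and coding sequences of canonical transcripts were aligned globally. The overlap and word counts were tested on simulated data. Alternatives were at least 50% of the body, the whole body, the window of the transcription start, 100 kb on either side, gaps of up to 100 kb joined, and regions of at least 200 kb. Named genes are the members, the listed cadherin and catenin genes, the nearest protein-coding gene on either side of each member and the 3 longest genes sharing a member's pattern; TMX3, TAF11L and SERPINB genes were named after their values were seen. SLAM-seq, hTERT-RPE1, mouse and other K562 TSA-seq data of the series were not analysed here. Calculations used Python 3.11.15, numpy 2.4.6, scipy 1.17.1, Biopython 1.88 and matplotlib 3.10.9.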

Additional observations from a re-analysis of the deposited data

How the results depend on the processing

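Each condition has 1 merged list without depth, so no replicate could be left out and differences of 1 window between lists cannot be weighed against replicate error. No paired analysis was possible because the lists are merged over replicates and no result comes from a test. Of 66 recomputed member counts, 64 stayed within 1.5 times the value reported. Outside 90m G1 the counts were 8 to 10 of 10, so none could rise by that much and only a marked fall could have left the range. The exceptions were both in 90m G1, where the count fell from 1 to 0 when the whole gene body, or 100 kb on either side, had to lie inside. For single genes, CDH6 was inside 10 lists instead of 4 with 50% of the body or with the window of the transcription start, and CDH20 was inside 2 lists instead of 6 with the whole body or with 100 kb on either side. With gaps of up to 100 kb joined, the median holding region grew from 6.5 to 10.1 Mb in K562 TSA-seq, from 7.2 to 10.4 Mb in 180m G1 and from 7 to 10.3 Mb in S, as the regions on chromosome 5 joined. The background depended on the genes counted. It was 4.55% to 17.2% over all protein-coding genes and 8.35% to 23.9% over those of at least 100 kb. Over genes of all types it was 10.4% to 21.2%, and over autosomes only 4.22% to 16.7%. The gene bodies of RefSeq were not run, since the table given is of another build.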
